A study of Mus musculus with 14 samples.

Results

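The proteasome genes of the mouse heart were followed after the loss of Fam210a, a gene for a mitochondrial protein, from cardiomyocytes. Genes were taken by symbol, as every name made of Psm, a letter from a to g and a number, with an optional last letter. Of 53735 symbols, 49 matched, and 48 had 10 or more counts in at least 3 libraries. The one left out was Psmb11, the thymus catalytic subunit, which had 0 counts in all 8 early hearts and in the late controls, and 1, 5 and 9 counts in the late cKO hearts. By role the 48 genes were 15 core subunits, 17 subunits of the regulatory cap, 5 immune subunits, 7 assembly chaperones and 4 other activators or regulators.

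The proteasome is the main protease of the cytosol and nucleus and degrades proteins tagged with ubiquitin. Its core is a barrel of stacked alpha and beta rings with the cutting sites on the inside, and its cap binds the ubiquitin chain, removes it and feeds the unfolded protein into the barrel. Interferon-gamma replaces the constitutive cutting subunits Psmb5, Psmb6 and Psmb7 by the immune subunits Psmb8, Psmb9 and Psmb10, and raises the activator subunits Psme1 and Psme2, which serve the making of peptides for MHC class I. When proteasome activity falls short, the transcription factor NRF1, encoded by Nfe2l1, is cut free from the endoplasmic reticulum and raises the genes of core and cap together.

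RNA was measured by poly-A RNA-seq in 14 hearts of male C57BL/6 mice. The knockout hearts (cKO) had the genotype Fam210a fl/fl, alphaMHC MCM/+, and the control hearts had alphaMHC MCM/+. MCM is a Cre recombinase that tamoxifen switches on, and the alphaMHC promoter restricts it to cardiomyocytes, so other heart cells kept the gene. Both groups carried the transgene and were given tamoxifen, so no heart without Cre or without the drug is in the comparison. The late groups, 3 cKO and 3 control hearts, were collected some 10 weeks after the drug, when the submitters found the heart's pumping badly impaired. The early groups, 4 cKO and 4 control hearts, were collected at some 5 weeks, when they found it normal.

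Libraries held 29989076 to 35750964 counts late and 15657298 to 19466469 early. Levels are given as CPM, reads scaled to a common library size. Fam210a, whose level checks the labels, averaged 66.8 ± 3.41 CPM in late cKO hearts and 128 ± 7.27 CPM in late controls (SD, n = 3 each), with an adjusted p of 6.5e-05. Early it averaged 146 ± 10.2 CPM in early cKO hearts and 170.4 ± 6.04 CPM in early controls (SD, n = 4 each) and was not called (adjusted p = 0.17), although all early cKO hearts were below all early controls. One library was unlike its group: late cKO replicate 3 gave a per-gene chi-square of 107 and 101 against the other late cKO hearts, which gave 21.5 against each other. One label conflicted: the title and description of early cKO replicate 4 call it a knockout and its genotype entry a control. Its Fam210a level was 150.4 CPM, where the other early cKO hearts had 135 to 158 CPM and the early controls 165 to 178 CPM. It was kept as a knockout by its title, and the tests were repeated without it and with it as a control. Cardiomyocyte markers summed to between 68076 and 94464 CPM in the 14 hearts, and lymphocyte markers to between 0.768 and 4.68 CPM. Whether each library came from its own animal is not labelled, so a p-value covers only the variation among these libraries.

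The stretches around a start of each of 5 genes run from 250 bases before to 50 bases after it, with RefSeq's sequence on build GRCm38.p6. Only the first start listed for each gene was used, and other starts were not searched. For Psmb8, Psmb9 and Psme1 the whole stretch lies within the gene's span in the GENCODE M21 annotation. The genes chosen were the immune subunits Psmb8 and Psmb9 and the activator Psme1, which fell late. The cutting subunit Psmb5 and the cap subunit Psmd8, which rose, were also chosen. Psmb8 lies at chr17:34197945-34198244 (plus strand), Psmb9 at chr17:34187281-34187580 (minus strand), Psme1 at chr14:55578244-55578543 (plus strand), Psmb5 at chr14:54617946-54618245 (minus strand) and Psmd8 at chr7:29180624-29180923 (minus strand). Of 3 motifs searched on both strands, overlaps allowed, capitals mark matches to 2. These were TGACNNNGC, the core of the antioxidant response element that NRF1 and NRF2 bind, and the core of the interferon-stimulated response element, which is GAAA, any 2 bases and GAAA, and reads TTTC, any 2 bases and TTTC on the other strand. The other was the CCAAT box, spelled CCAAT and left in lower case.
Psmb8: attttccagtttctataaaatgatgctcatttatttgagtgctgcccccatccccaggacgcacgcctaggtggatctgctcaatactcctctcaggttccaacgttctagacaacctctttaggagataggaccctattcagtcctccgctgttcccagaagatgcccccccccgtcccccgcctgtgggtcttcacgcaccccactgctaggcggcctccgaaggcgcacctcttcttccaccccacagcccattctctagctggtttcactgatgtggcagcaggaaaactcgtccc
Psmb9: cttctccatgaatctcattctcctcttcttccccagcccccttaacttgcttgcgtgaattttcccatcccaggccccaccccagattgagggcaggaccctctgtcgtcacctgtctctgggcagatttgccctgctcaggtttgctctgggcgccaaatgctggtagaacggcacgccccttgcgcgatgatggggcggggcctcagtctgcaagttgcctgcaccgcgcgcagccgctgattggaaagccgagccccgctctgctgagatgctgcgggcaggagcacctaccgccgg
Psme1: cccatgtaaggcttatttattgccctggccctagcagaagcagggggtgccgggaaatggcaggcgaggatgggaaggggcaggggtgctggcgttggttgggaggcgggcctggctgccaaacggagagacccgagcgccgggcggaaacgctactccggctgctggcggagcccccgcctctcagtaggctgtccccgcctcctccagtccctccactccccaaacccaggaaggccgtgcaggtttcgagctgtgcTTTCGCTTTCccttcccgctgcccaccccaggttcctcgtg
Psmb5: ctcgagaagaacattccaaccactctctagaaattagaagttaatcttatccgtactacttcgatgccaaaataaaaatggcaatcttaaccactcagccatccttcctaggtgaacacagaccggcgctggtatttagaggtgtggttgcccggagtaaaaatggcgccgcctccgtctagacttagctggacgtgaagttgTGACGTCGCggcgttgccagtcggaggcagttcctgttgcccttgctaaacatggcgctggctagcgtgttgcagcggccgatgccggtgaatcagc
Psmd8: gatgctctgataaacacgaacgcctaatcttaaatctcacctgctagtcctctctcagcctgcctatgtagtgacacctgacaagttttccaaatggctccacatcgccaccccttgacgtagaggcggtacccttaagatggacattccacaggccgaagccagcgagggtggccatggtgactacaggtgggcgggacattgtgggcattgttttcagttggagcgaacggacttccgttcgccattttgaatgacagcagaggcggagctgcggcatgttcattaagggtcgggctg
Of the 48 genes, 40 had a promoter in the RefSeq table. The antioxidant core was in 6 of the 40 (15%), against 12.5% of all 27025 promoters of the same length. The interferon core was in 5 of the 40 (12.5%), against 3.49% of all promoters, and in 1 of the 5 immune subunits, Psme1. The other matches were in Psmb3, Psmd4, Psmd9 and Psmg4, which all rose late. The CCAAT box was in 13 of the 40 (32.5%), against 37.9% of all promoters. A match of these letters describes the sequence and is no evidence of binding.

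In the late comparison, which asks how gene expression differs once heart function has declined, most core and cap genes rose while 3 of the 5 immune subunits fell. Core and cap genes were higher in cKO hearts almost throughout, with Psmd8 up 5.18-fold, Psmc2 up 3.05-fold and Psmb5 up 2.84-fold. The immune subunits Psmb9, Psmb8 and Psme1 were 8.26-fold, 4.68-fold and 2.99-fold lower, while Psmb10 and Psme2 were not called. All 48 genes passed the filter on low counts. With edgeR's quasi-likelihood test and Benjamini-Hochberg adjustment over all 14942 genes tested, 37 of the 48 rose and 5 fell at an adjusted p under 0.05, where 31.8% of all genes tested rose and 33.2% fell (65.0% in either direction). With upper-quartile scaling, 3848 of all genes tested were called higher and 5825 lower late, against 4757 and 4957 as reported. The 5 that fell include Psme2b, which passed the count rule late only through the controls. The median log2 fold change was 0.77 over the 48 genes and -0.02 over all genes tested. Every adjusted p below comes from this test unless another is named.

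Summed over the 48 genes, the hearts held 6090.2, 5899 and 7805 CPM in the late cKO group, against 3944, 3576 and 3359 CPM in the late controls. Each cKO heart was above each control heart, and the highest was cKO replicate 3. Gene by gene, 38 of the 48 had all cKO hearts above all controls and 5 had all below, where 34.0% and 35.9% of all genes tested did. In whole-heart RNA, a loss of cells that carry a transcript and less of it per cell cannot be told apart.

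**Figure D1:**
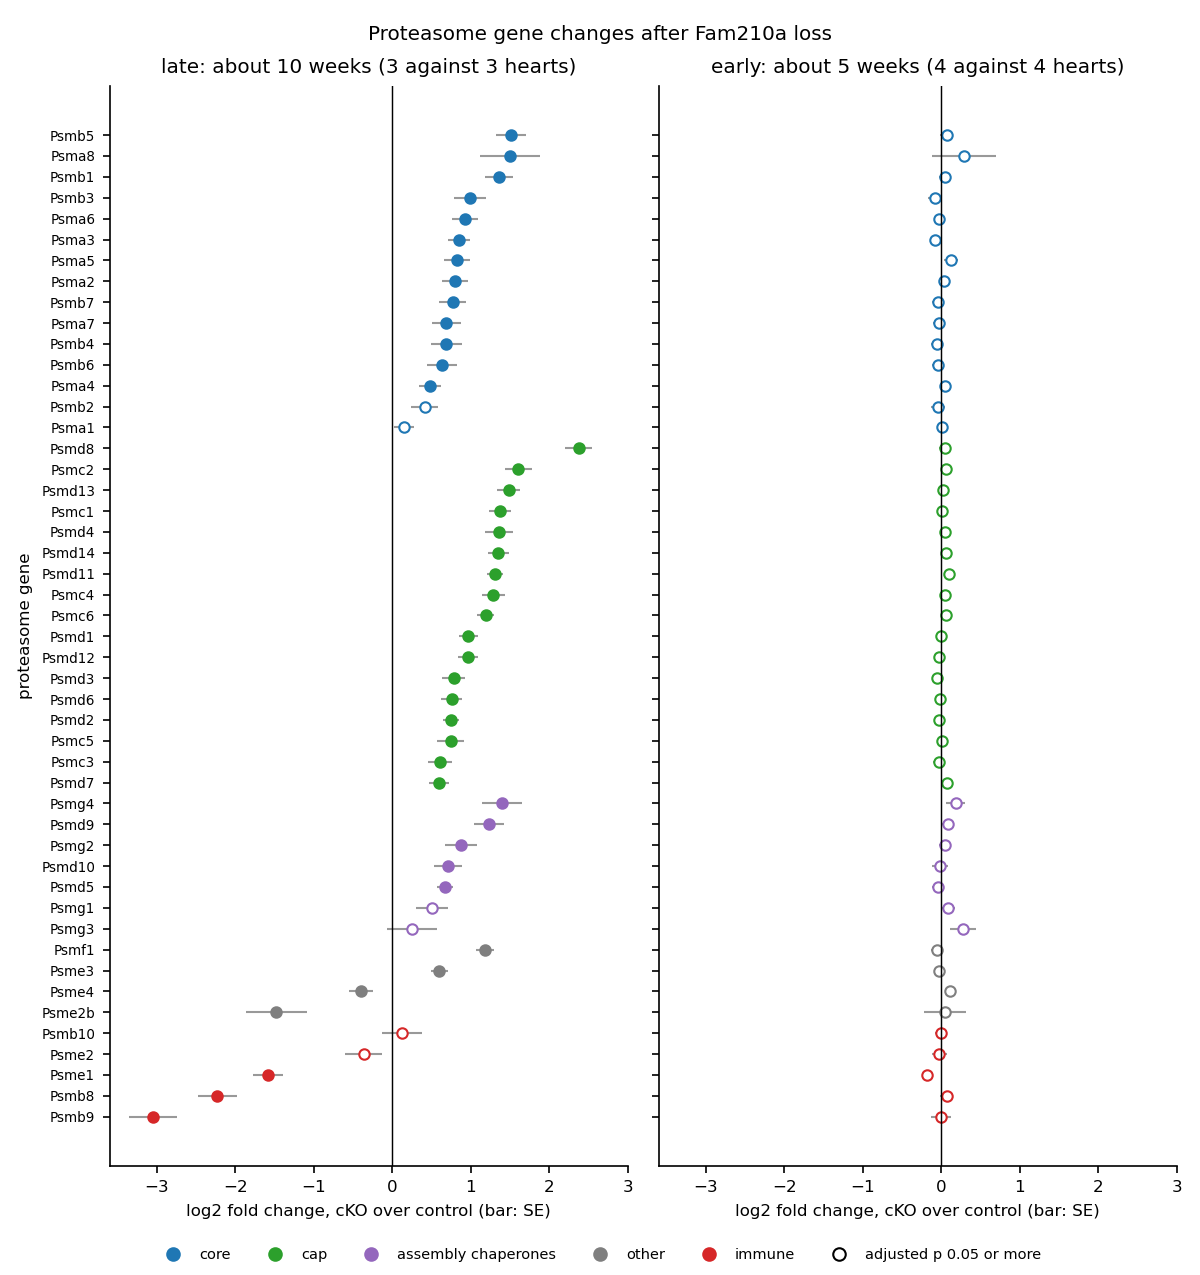
Log2 fold change of each of the 48 proteasome genes (horizontal axis; cKO over control, bars are SE), late on the left with 3 hearts a group and early on the right with 4 a group, coloured by role; filled points have an adjusted p under 0.05. Late, core and cap genes lie to the right of 0, up to 2.37 for Psmd8, and Psmb9 lies farthest left at -3.05, while early values all lie between -0.17 and 0.29 and no point is filled.

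Of the 15 core genes, 13 rose late and none fell, with a median log2 fold change of 0.80 and a range from 0.14 to 1.51. All 3 constitutive cutting subunits rose. Psmb5, which carries the chymotrypsin-like site, had 85.0, 82.6 and 134 CPM in late cKO hearts, against 36.2, 38.2 and 31.4 CPM in late controls. Every cKO heart exceeded every control heart, and cKO replicate 3 was the highest (log2 fold change 1.51, SE 0.19, adjusted p = 0.000143). Psmb6, the caspase-like site, had 144, 141 and 229 CPM in late cKO hearts, against 123, 109.7 and 98.4 CPM in late controls. The groups did not overlap, although the lowest cKO heart lay close to the highest control (log2 fold change 0.63, SE 0.19, adjusted p = 0.0173). Without late control replicate 2 or 3, its adjusted p became 0.056 or 0.0653. Psmb7, the trypsin-like site, had 177, 172 and 247 CPM in late cKO hearts, against 136, 113 and 101 CPM in late controls. The groups did not overlap here either (log2 fold change 0.77, SE 0.17, adjusted p = 0.00358). Some reads cannot be assigned with certainty, since 22.2% of the 100-base stretches of Psmb5 occur also in its pseudogene Gm3375 or in Mir686, and 11.8% of the exonic length of Psmb7 lies opposite Nek6.

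The structural beta subunits build the ring without cutting. Psmb1 rose 2.56-fold (log2 fold change 1.36, SE 0.18, adjusted p = 0.000158), Psmb3 1.98-fold and Psmb4 1.61-fold. Psmb2 had 107, 107 and 149.9 CPM in late cKO hearts, against 110.2, 84.8 and 79.1 CPM in late controls, and its groups overlapped through control replicate 1 (log2 fold change 0.41, SE 0.18, adjusted p = 0.0666). It passed the test without late cKO replicate 1 or late control replicate 1 (adjusted p = 0.0494 and 0.0254). Psmb4 lost its call without late control replicate 3 (adjusted p = 0.0564). The alpha ring forms the gate of the barrel, and 7 of its 8 members rose. Among these, Psma6 averaged 199.6 ± 36.9 CPM in late cKO hearts and 105 ± 16.6 CPM in late controls (SD, n = 3 each), a 1.90-fold rise, and Psma4 rose the least at 1.39-fold, with an adjusted p of 0.061 without late control replicate 3. Psma1 was not called and its groups overlapped (log2 fold change 0.14, SE 0.13, adjusted p = 0.338), and upper-quartile scaling turned its value to -0.03. Psma8, the testis form of an alpha subunit, was barely present, with 38, 96 and 43 counts in late cKO hearts, against 25, 19 and 16 counts in late controls, and rose 2.84-fold (log2 fold change 1.5, SE 0.38, adjusted p = 0.00694).

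All 17 cap genes rose late, with a median log2 fold change of 1.19, from 0.60 for Psmd7 to 2.37 for Psmd8. The cap has a base of ATPases that unfold and thread the substrate, and a lid that takes off the ubiquitin. Psmd8, a lid subunit, had 474, 446 and 633 CPM in late cKO hearts, against 113, 102 and 84.8 CPM in late controls. All 3 cKO hearts were several times higher than any control (log2 fold change 2.37, SE 0.17, adjusted p = 5.78e-06). No 100-base stretch of its transcripts occurs in another annotated gene, so its reads are not shared with a copy. Among the 6 base ATPases, Psmc2 rose the most and Psmc3 the least. Psmc2 had 283, 289 and 422 CPM in late cKO hearts, against 119, 107 and 100.4 CPM in late controls, again with no overlap (log2 fold change 1.61, SE 0.17, adjusted p = 4.6e-05). Psmc3 rose 1.52-fold, with an adjusted p of 0.00687.

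The ubiquitin-handling subunits of the cap were among those that rose. Psmd4, a ubiquitin receptor, averaged 239.9 ± 62.1 CPM in late cKO hearts and 93.3 ± 6.24 CPM in late controls (SD, n = 3 each), a 2.57-fold rise. Psmd14, the deubiquitinase of the lid, averaged 116 ± 16.1 CPM in late cKO hearts and 45.3 ± 4.04 CPM in late controls (SD, n = 3 each), a 2.55-fold rise. The amount of Psmd11 limits how much capped proteasome is assembled in human embryonic stem cells. Psmd11 had 187, 189.9 and 178 CPM in late cKO hearts, against 75.5, 70.9 and 78.0 CPM in late controls. Its values were tight within both groups and did not overlap (log2 fold change 1.30, SE 0.10, adjusted p = 9.16e-06). Psmd2 and Psmd1, the large scaffold subunits of the base, rose 1.68-fold and 1.96-fold. Psmd13 rose 2.80-fold, but it shares 10.1% of its exonic length with Sirt3 on the opposite strand, and the unstranded kit cannot separate the reads of the shared stretch. Psmd7, which pairs with Psmd14 in the lid, rose 1.51-fold and was the smallest rise of the cap. All 17 calls held in each setting tried, leave-one-out fits included.

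None of the 5 immune subunits rose late, and 3 fell. Psmb8, the interferon-induced counterpart of Psmb5, had 2.47, 2.64 and 4.73 CPM in late cKO hearts, against 17.2, 15.9 and 12.8 CPM in late controls. Each cKO heart was far under each control, and cKO replicate 3 was the highest of its group (log2 fold change -2.23, SE 0.25, adjusted p = 6.68e-05). Psmb9, the counterpart of Psmb6, had 0.993, 0.569 and 1.65 CPM in late cKO hearts, against 8.69, 8.93 and 8.58 CPM in late controls. These cKO values rest on 33, 20 and 48 counts, and the groups did not overlap (log2 fold change -3.05, SE 0.31, adjusted p = 3.26e-05). Psmb10, the counterpart of Psmb7, did not follow the other cutting subunits, with 29.8, 31.3 and 59.0 CPM in late cKO hearts, against 38.5, 40.6 and 30.9 CPM in late controls. Its groups overlapped, with cKO replicate 2 above control replicate 3 and cKO replicate 3 the highest of all 6 hearts (log2 fold change 0.12, SE 0.25, adjusted p = 0.683). Without that heart its log2 fold change turned to -0.25 (adjusted p = 0.0928), and with upper-quartile scaling to -0.05.

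Psmb8 and Psmb9 lie beside each other and beside the peptide transporter gene Tap1 in the MHC region of chromosome 17 (GRCm38). Psmb8 spans 34197721 to 34201454 on the plus strand and shares 14.7% of its exonic length with the antisense transcript Gm20496. Psmb9 spans 34181987 to 34187764 on the minus strand and shares 5.79% of its exonic length with Tap1. Reads in these stretches cannot be assigned by strand. Tap1 had 5.81, 4.69 and 5.31 CPM in late cKO hearts, against 16.9, 14.9 and 14.5 CPM in late controls, with no overlap (log2 fold change -1.55, SE 0.14, adjusted p = 1.97e-05). Psmb10 lies apart, on chromosome 8 from 105935735 to 105938444.

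**Figure D2:**
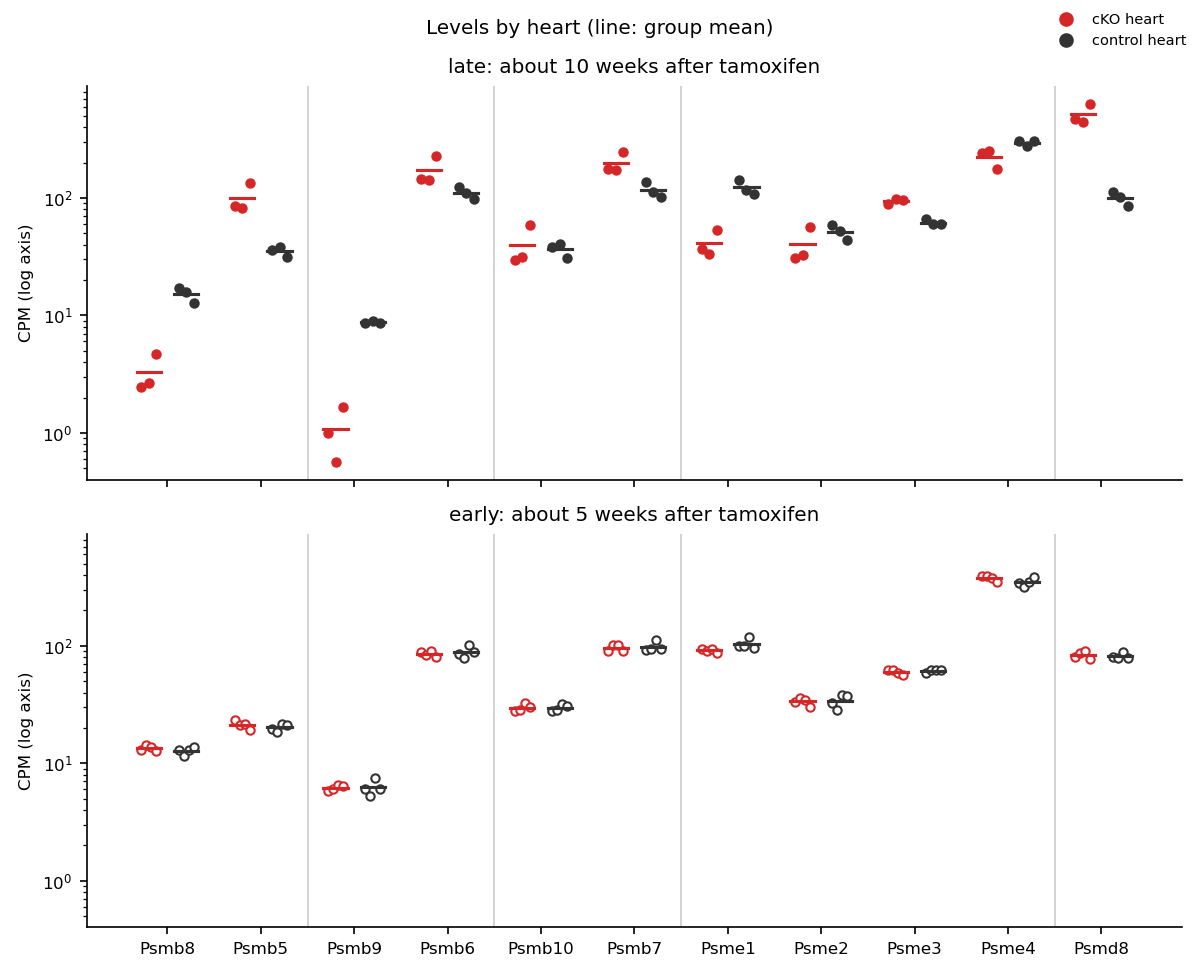
Level of each immune subunit beside its constitutive counterpart, and of activators and Psmd8, in every heart (CPM, log axis; red cKO, dark grey control, lines are group means), late above and early below. Late, Psmb8 and Psmb9 in cKO hearts (up to 4.73 and 1.65 CPM) lie far below controls (12.8 and 8.58 CPM or more) while Psmb5 and Psmd8 lie above, and early the groups lie close together.

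The balance within each pair of cutting subunits was read as a ratio of counts within a library, which no scaling of the libraries can change. The Psmb8 to Psmb5 ratio was 0.0290, 0.0320 and 0.0354 in late cKO hearts, against 0.475, 0.415 and 0.406 in late controls, or 13.5-fold lower. The Psmb9 to Psmb6 ratio was 0.00689, 0.00402 and 0.00717 in late cKO hearts, against 0.0704, 0.0814 and 0.0872 in late controls, or 13.6-fold lower. Both ratios kept the groups far apart, cKO replicate 3 included.

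The Psmb10 to Psmb7 ratio was 0.168, 0.182 and 0.239 in late cKO hearts, against 0.282, 0.361 and 0.305 in late controls, or 1.62-fold lower. Here too the groups did not overlap, which they did for Psmb10 alone. The exact two-sided permutation test gave p = 0.1 for each of the 3 ratios, the smallest that 3 hearts against 3 allow, and 0.2 after adjustment over 6 ratios. Per kilobase of exon, Psmb8 made up 0.766 to 0.931% of Psmb8 plus Psmb5 in late cKO hearts and 9.75 to 11.2% in late controls. Psmb9 made up 0.205 to 0.366% of its pair in late cKO hearts and 3.48 to 4.27% in late controls, and Psmb10 25.2 to 32.4% in late cKO hearts and 36.2 to 42.0% in late controls.

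**Figure D3:**
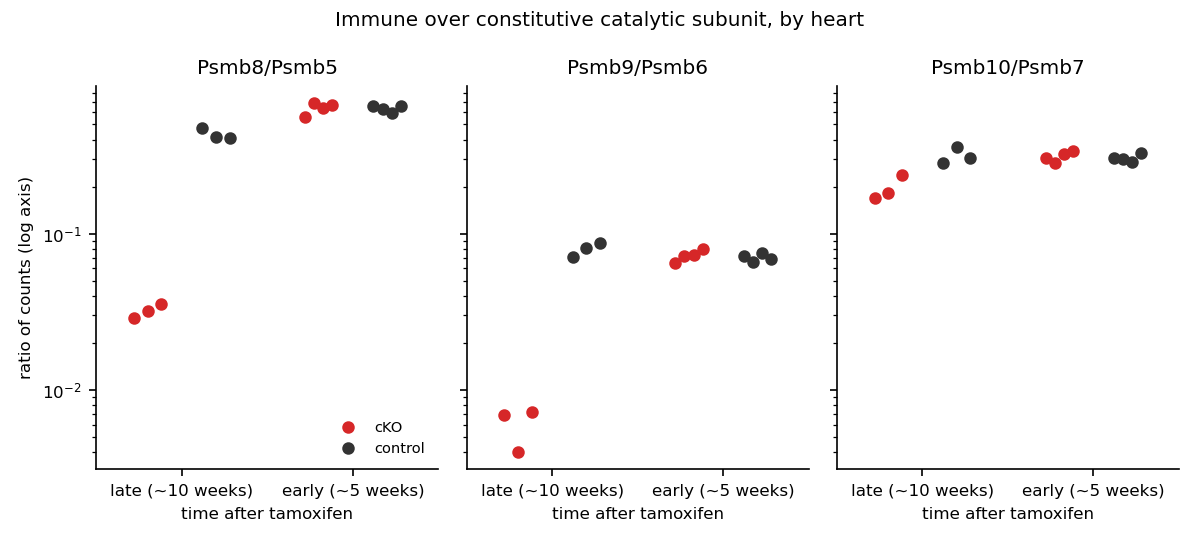
Ratio of counts of each immune cutting subunit to its constitutive counterpart in every heart (log axis; red cKO, dark grey control), late on the left of each panel and early on the right. Late cKO hearts lie at 0.0354 or less for Psmb8/Psmb5 and 0.00717 or less for Psmb9/Psmb6, below every control, and early the groups overlap in all 3 panels.

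The activators open the barrel without ubiquitin, and they changed in different directions. Psme1 and Psme2 together form the interferon-induced activator ring and lie close to each other on chromosome 14 (GRCm38), Psme1 from 55578123 to 55581529 on the plus strand and Psme2 from 55587441 to 55591113 on the minus strand. Psme1 had 36.9, 33.3 and 53.5 CPM in late cKO hearts, against 143, 118 and 108 CPM in late controls. The groups were well separated (log2 fold change -1.58, SE 0.19, adjusted p = 0.0001). Its partner Psme2 had 31.0, 32.5 and 57.1 CPM in late cKO hearts, against 59.2, 52.3 and 43.7 CPM in late controls, and cKO replicate 3 lay among the controls (log2 fold change -0.36, SE 0.23, adjusted p = 0.196). Without that heart its log2 fold change was -0.69 with an adjusted p of 0.000537. Reads of Psme2 can be split with the retrocopy Psme2b, since 18.4% of its 100-base stretches occur there.

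Psme3, which forms a nuclear activator that interferon does not induce, had 88.3, 97.3 and 95.5 CPM in late cKO hearts, against 66.1, 59.6 and 59.8 CPM in late controls, and rose with no overlap (log2 fold change 0.60, SE 0.11, adjusted p = 0.000954). Psme4, the large activator linked to histone breakdown, had 242, 249 and 177 CPM in late cKO hearts, against 303, 274 and 304 CPM in late controls. All cKO hearts were lower, with cKO replicate 3 the lowest, and the change was small (log2 fold change -0.40, SE 0.15, adjusted p = 0.0375). It lost its call without late control replicate 1, 2 or 3 (adjusted p = 0.114, 0.0678 and 0.102). Psmf1, which binds the core and inhibits it in vitro, had 50.2, 45.9 and 55.2 CPM in late cKO hearts, against 23.8, 21.8 and 21.2 CPM in late controls, a rise with no overlap (log2 fold change 1.18, SE 0.12, adjusted p = 3.34e-05). Psme2b was at 8, 5 and 5 counts in late cKO hearts, against 12, 21 and 17 counts in late controls, and fell 2.79-fold (log2 fold change -1.48, SE 0.39, adjusted p = 0.00847). As 52.0% of its 100-base stretches also occur in Psme2, this value is uncertain. Late it reached 10 counts only in the 3 controls, so it passed the count rule through the group where it was higher. It is included in the counts of genes lower in late cKO hearts and of genes with a lower value late than early.

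The assembly chaperones build the rings and the base and are not part of the finished particle. Of the 7, 5 rose late, with a median log2 fold change of 0.71. Psmg4, of the alpha-ring chaperones, had 11.6, 11.5 and 19.4 CPM in late cKO hearts, against 6.94, 5.00 and 4.20 CPM in late controls, with no overlap (log2 fold change 1.39, SE 0.26, adjusted p = 0.0012). Its partner Psmg3 had 2.65, 2.90 and 6.17 CPM in late cKO hearts, against 3.68, 3.05 and 3.06 CPM in late controls, and cKO replicate 3 was the only cKO heart above the controls (log2 fold change 0.25, SE 0.32, adjusted p = 0.504). Without that heart its log2 fold change was -0.22. Psmg2 rose 1.83-fold (adjusted p = 0.00476). Its partner Psmg1 was higher in each cKO heart but narrowly missed the threshold (log2 fold change 0.51, SE 0.20, adjusted p = 0.0508), and it passed without late cKO replicate 1 or 2 (adjusted p = 0.025 and 0.0408).

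The 3 chaperones of the cap base rose together. Psmd5 had 28.7, 29.0 and 29.95 CPM in late cKO hearts, against 18.7, 18.5 and 17.8 CPM in late controls, tight in both groups (log2 fold change 0.67, SE 0.10, adjusted p = 0.000426). Psmd10, also known as gankyrin, rose 1.64-fold (adjusted p = 0.00672). Psmd9 rose 2.35-fold (log2 fold change 1.23, SE 0.19, adjusted p = 0.000425), but 25.5% of its exonic length lies opposite the noncoding gene Gm26745, so reads of that stretch may be counted for either gene.

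Levels of different genes were set side by side as CPM per kilobase of exon. Psmd8 ranked 1 of the 48 genes in late cKO hearts with 169 ± 32.9 CPM per kb, against rank 18 in late controls with 32.7 ± 4.62 CPM per kb (SD, n = 3 each). Psma6 ranked 2 in late cKO hearts with 162 ± 29.9 CPM per kb, against rank 1 in late controls with 85.3 ± 13.4 CPM per kb, and in cKO hearts it and Psmd8 differed by less than their SDs. Psme1 ranked lower in the knockout, at rank 38 in late cKO hearts with 18.7 ± 4.88 CPM per kb, against rank 7 in late controls with 55.8 ± 8.13 CPM per kb. Psmb5 stood at rank 5 in late cKO hearts and rank 11 in late controls. Psmb9 was at 0.292 CPM per kb in late cKO hearts and 2.39 CPM per kb in late controls.

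**Figure D4:**
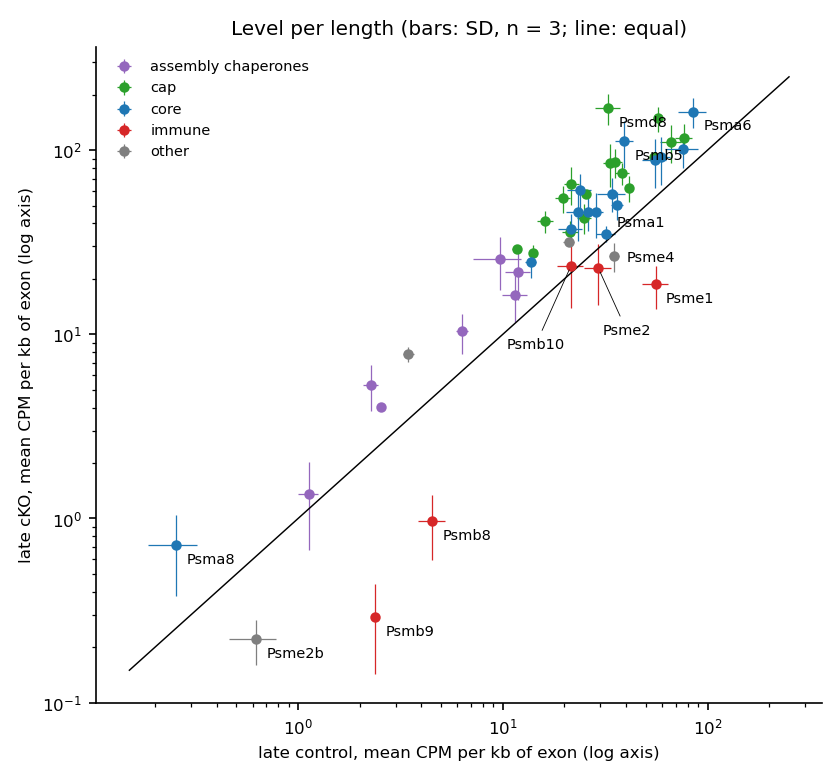
Mean level per kilobase of exon of the 48 genes in late cKO hearts (vertical axis, CPM per kb, log) against late controls (horizontal axis, CPM per kb, log), with SD bars over 3 hearts a group and a line of equality. Core and cap genes lie above the line, with Psmd8 highest at 169 CPM per kb in cKO hearts, and Psmb8, Psmb9 and Psme1 lie well below it.

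Genes that work with the proteasome were then read from further lists. Late, 31.8% of all genes tested rose and 33.2% fell. Of 10 genes for proteasome transcription and for the processing of NRF1, 9 rose late and none fell, with a median log2 fold change of 0.94. Nfe2l1 itself had 925, 976 and 809.5 CPM in late cKO hearts, against 538, 523 and 559.7 CPM in late controls, with no overlap (log2 fold change 0.74, SE 0.12, adjusted p = 0.000565). Mafk and Maff, small partners that bind DNA with NRF1 and NRF2, rose 5.94-fold and 5.05-fold. The extraction ATPase Vcp and its cofactor Nploc4, which pull NRF1 out of the membrane, rose 2.19-fold and 2.90-fold, and the deglycosylase Ngly1 1.61-fold. Ddi2, the protease that cuts NRF1, was the one not called (log2 fold change 0.08, SE 0.16, adjusted p = 0.669).

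Of 15 proteasome cofactors whose symbols do not start with Psm, 8 rose and 1 fell late, with a median log2 fold change of 0.57. The share of all genes tested that rose late, 31.8%, applies to each list here, as does the 33.2% that fell. Uchl5, a deubiquitinase docked on the cap, rose 2.76-fold, its receptor Adrm1 1.93-fold and the shuttle factor Ubqln1 2.59-fold. Pomp, the chaperone that matures the core, was not called (log2 fold change 0.44, SE 0.19, adjusted p = 0.0688). Zfand5, a factor that stimulates the proteasome in muscle wasting, was the one that fell (log2 fold change -0.36, SE 0.10, adjusted p = 0.0106). Of 6 genes for ubiquitin and its activation, 4 rose. Of 6 muscle ubiquitin ligases, Fbxo30, Trim54 and Fbxo32 rose, while Trim63 was not called (log2 fold change -0.36, SE 0.16, adjusted p = 0.0771).

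All 17 genes of interferon signalling and antigen presentation fell late, where 33.2% of all genes tested did. Their median log2 fold change was -2.05. Irf1, a transcription factor that drives Psmb9 and Tap1, had 7.28, 6.65 and 8.60 CPM in late cKO hearts, against 35.7, 40.0 and 32.7 CPM in late controls. All cKO hearts were far below the controls (log2 fold change -2.27, SE 0.14, adjusted p = 2.72e-06). Stat2 and Irf9 were 4.14-fold and 4.47-fold lower, and the class I light chain B2m 2.12-fold.

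Most markers of leukocytes, macrophages and endothelium fell late, as Psmb8, Psmb9 and Psme1 did. Of all genes tested late, 33.2% fell and 31.8% rose. All 9 leukocyte markers fell, and their sum was 40.1 to 47.3 CPM in late cKO hearts and 77.3 to 80.6 CPM in late controls. Of 11 macrophage markers 8 fell, with sums of 216 to 264 CPM in late cKO hearts and 371 to 384 CPM in late controls. Of 9 endothelial markers 8 fell, with sums of 703 to 772 CPM in late cKO hearts and 1637 to 1816 CPM in late controls. Of the 11 lymphocyte markers 2 passed the filter and both fell, with sums of 0.768 to 1.13 CPM in late cKO hearts and 4.17 to 4.29 CPM in late controls. Markers this scarce in cKO hearts can pass the filter through the controls alone, so these 2 calls are not independent of the filter. Of 8 fibroblast markers 4 fell and 1, Postn, rose, with overlapping sums of 990 to 1461 CPM in late cKO hearts and 1260 to 1689 CPM in late controls. Of 10 cardiomyocyte markers 5 fell and 1 rose, and their sum was 68076 to 78740 CPM in late cKO hearts and 83468 to 94464 CPM in late controls. The part of these cells in the fall of Psmb8, Psmb9 and Psme1 was not tested.

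**Figure D5:**
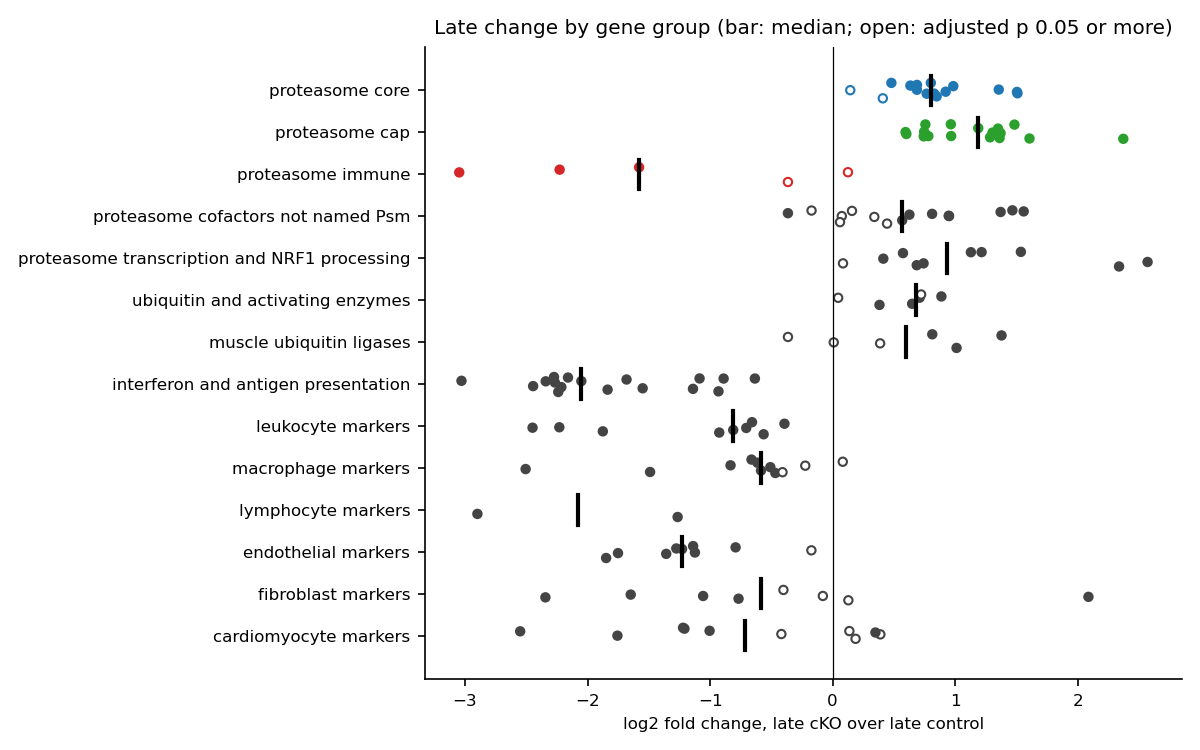
Late log2 fold change (cKO over control, horizontal axis) of each gene in the core, cap and immune groups and in the further lists, with a bar at each median; filled points have an adjusted p under 0.05. The medians lie at 0.80 for core and 1.19 for cap genes, at -1.58 for immune subunits and at -2.05 for interferon and antigen presentation genes.

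In the early comparison, which asks what differs before function declines, no proteasome gene was called. With edgeR, 0 of the 48 passed at an adjusted p under 0.05, where 0.613% of the 13529 genes tested did (0.517% higher and 0.0961% lower), and 0 passed with DESeq2. At an unadjusted p under 0.05 there was 1, Psme1, where 1387 of the 13529 genes tested had such a p. The median log2 fold change was 0.01, with a range from -0.17 for Psme1 to 0.29 for the scarce Psma8. The summed level was 3279 ± 97.7 CPM in early cKO hearts and 3251 ± 185 CPM in early controls (SD, n = 4 each).

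Psme1 had 93.7, 91.1, 94.8 and 86.6 CPM in early cKO hearts, against 99.3, 99.0, 118 and 96.6 CPM in early controls. It was the only one of the 48 genes with all early cKO hearts below all controls, where 2.68% of all genes tested did so (log2 fold change -0.17, SE 0.07, adjusted p = 0.406). The lid subunit Psmd11 was the only one with all early cKO hearts above all controls, where 2.98% of all genes tested did so. It had 82.7, 81.8, 84.5 and 83.5 CPM in early cKO hearts, against 77.3, 78.6, 76.9 and 78.1 CPM in early controls (log2 fold change 0.10, SE 0.05, adjusted p = 0.509).

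For the genes with the largest late changes, the early groups overlapped. Psmd8 averaged 83.9 ± 6.48 CPM in early cKO hearts and 81.4 ± 4.79 CPM in early controls (SD, n = 4 each). Psmb8 averaged 13.5 ± 0.783 CPM in early cKO hearts and 12.8 ± 0.933 CPM in early controls (SD, n = 4 each), and Psmb9 6.20 ± 0.355 CPM in early cKO hearts and 6.22 ± 0.974 CPM in early controls (SD, n = 4 each). The early log2 ratio of Psmb8 to Psmb5 differed by -0.0027 between cKO and control hearts, that of Psmb9 to Psmb6 by 0.04 and that of Psmb10 to Psmb7 by 0.03 (exact two-sided permutation p = 1, 0.6 and 0.629). With early cKO replicate 4 left out or counted as a control, the count of called genes was again 0.

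Among the further lists no gene was called early. The nearest was Mafg, another small partner of NRF1, with 70.1, 69.3, 71.6 and 69.3 CPM in early cKO hearts, against 54.6, 55.8, 54.4 and 63.8 CPM in early controls. Its groups did not overlap (log2 fold change 0.29, SE 0.06, adjusted p = 0.0579). Mafk and Nfe2l1 also had no overlap, with log2 fold changes of 0.27 and 0.15 (adjusted p = 0.184 and 0.409). Of all genes tested, 2.98% had all early cKO hearts above all controls. Of the 10 genes for proteasome transcription and NRF1 processing, 8 had a positive value and 2 a negative one. Ddi2 was among the negative ones (log2 fold change -0.18, SE 0.07, adjusted p = 0.395). Cardiomyocyte marker sums did not overlap early, at 74855 to 81311 CPM in early cKO hearts and 84002 to 92341 CPM in early controls. Of these 10 markers none was called, 9 had a negative log2 fold change, 5 had an unadjusted p under 0.05 and 4 had all cKO hearts below all controls. Of all 13529 genes tested early, 6747 had a negative value and 1387 an unadjusted p under 0.05. All cKO hearts lay below all controls for 2.68% of them. The part of cardiomyocytes in the early values was not tested. Sums of leukocyte, macrophage, lymphocyte, endothelial and fibroblast markers overlapped early, with leukocyte markers at 60.8 to 86.3 CPM in early cKO hearts and 60.0 to 69.2 CPM in early controls. All 9 leukocyte markers had a positive early log2 fold change (median 0.15), with none called. So had 8 of 11 macrophage, 6 of 9 endothelial and 6 of 8 fibroblast markers, while the 1 lymphocyte marker tested was negative. Of the 13529 genes tested, 6782 were positive.

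The late and early changes were compared as a genotype-by-time contrast over all 14 hearts, the late log2 fold change minus the early one. Of the 48 genes, 36 had a higher value late and 5 a lower one, where 29.8% and 31.3% of 14555 genes tested did (61.2% in either direction). All 17 cap genes and 12 of 15 core genes had a higher value late. Psmd8 differed most upward, by 2.35 (SE 0.18, adjusted p = 2.25e-08), followed by Psmc2 at 1.56, Psmd13 at 1.48 and Psmb5 at 1.45. Psmb9 differed most downward, by -3.03 (SE 0.31, adjusted p = 5.39e-07), followed by Psmb8 at -2.28, the scarce Psme2b at -1.50, Psme1 at -1.39 and Psme4 at -0.50. For Nfe2l1 the difference was 0.61 (adjusted p = 0.00019) and for Irf1 -2.19 (adjusted p = 1.06e-08). The 7 genes not called were Psma1, Psma8, Psmb2, Psmb10, Psme2, Psmg1 and Psmg3. Psmb10 differed by 0.14 and Psme2 by -0.32 (adjusted p = 0.663 and 0.288), and Psme2 was called without late cKO replicate 3 (adjusted p = 0.00261). As each time has its own count table, an effect of the table cannot be told apart from one of time. Only changes within a table were compared.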

How the data were processed

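The authors deposited raw read counts for each gene symbol, in 1 table per time, and the values show no sign of normalization. Per the labels' protocols, mRNA from 100 ng of total RNA was made into TruSeq V2 libraries, a kit that does not mark strand, and read as single ends of 100 nt. Per the submitters' processing notes, Trimmomatic 0.36, STAR 2.6.0c and build GRCm38 were used. The read counter and its annotation are named nowhere in these sources (not given in the sources used here). Poly-A capture and PCR without molecular identifiers mean that counts are not separate molecules. Any pair of libraries within a group had a per-gene chi-square of at least 3.90, so no library repeated another.

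Each table was tested whole with edgeR 4.0.16 in R 4.3.3 (TMM, filterByExpr with minimum count 10 and total 15, quasi-likelihood F test, Benjamini-Hochberg adjustment, threshold 0.05). The SE is the log2 fold change over the square root of F. The difference between times was a contrast fitted over all 14 libraries. Levels in CPM used TMM-scaled library sizes. Lengths, positions and overlaps came from GENCODE M21 on GRCm38, and 100-base stretches from its transcripts. The procedure was checked on simulated counts with changes in a small part of the genes. Scaling when most genes change was not checked by it. Alternatives were DESeq2 1.42.0, other scalings, no low-count filter, no mitochondrial-encoded genes, 1 fit of all libraries, a replicate block, leaving out each heart, and the other label of early cKO replicate 4.

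The members and gene lists were chosen with earlier results of these data known. Named by rule are the immune and constitutive cutting subunits, the activators, Psmf1, the 2 largest and 2 smallest late changes in core, cap and chaperones, and any member called early or lower. From each further list the rule names up to 3 tested genes with the smallest p, and Nfe2l1, Pomp, Adrm1, Irf1 and Tap1 always. Some of these genes are not reported here. Other genes named, such as Psma6, Psmd11, Vcp, Zfand5 and B2m, were chosen after their values were seen. The further lists, in the order described, are proteasome transcription and NRF1 processing, proteasome cofactors, ubiquitin, muscle ligases, interferon and antigen presentation, and markers of leukocytes, macrophages, endothelium, lymphocytes, fibroblasts and cardiomyocytes.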

Additional observations from a re-analysis of the deposited data

Results flagged for a closer look

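Among 96 early groups of 4 hearts, 1 heart stood far from the others in 7, where chance sets apart about 5% of groups. Early cKO replicate 4, the heart with the conflicting genotype label, was lowest for Psma1 at 83.5 CPM and for Psma4 at 59.5 CPM. Early control replicate 3 was highest for Psmb3 at 39.2 CPM, Psmb7 at 112 CPM, Psmd8 at 88.6 CPM and Psme1 at 118 CPM. Early control replicate 1 was lowest for Psme3 at 58.5 CPM.

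The late and the early change differed for 16 of the 23 named genes by the genotype-by-time contrast of edgeR, an adjusted test over all genes. Of all 14555 genes tested, 61.2% differed, and some of the 23 were named for the size or direction of their late change. The late minus early log2 fold change was higher late by 1.45 for Psmb5, 0.69 for Psmb6 and 0.82 for Psmb7, the constitutive cutting subunits. In the cap it was 1.56 for Psmc2, 0.64 for Psmc3, 0.54 for Psmd7 and 2.35 for Psmd8. It was 1.17 for the chaperone Psmd9, 1.23 for the chaperone Psmg4, 0.65 for Psme3 and 1.25 for Psmf1. Among the 5 interferon-induced subunits it was negative and called for 3, at -2.28 for Psmb8, -3.03 for Psmb9 and -1.39 for Psme1. It was also negative at -1.50 for Psme2b and -0.50 for Psme4.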

How the results depend on the processing

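Of the 48 genes, 42 were called late, and 38 to 44 were called under the alternatives. The calls lost were of Psma4, Psmb4, Psmb6 and Psme4, with adjusted p from 0.0507 to 0.114. Early, 0 were called in each alternative, and between times 41 genes differed, with 40 to 44 under the alternatives. Between times, Psma4 lost its call with upper-quartile scaling and the replicate block (adjusted p = 0.146 and 0.0535). Psmb2 was called in 10 alternatives (adjusted p = 0.00786 to 0.0497), Psmg1 in 3 (0.0276 to 0.0404) and Psma8 in 2 (0.0357 and 0.0432). Upper-quartile scaling moved the late median of all genes to -0.19, took the calls of Psma4 and Psmb6 (adjusted p = 0.0795 and 0.0607) and turned the uncalled late values of Psma1 and Psmb10 to -0.028 and -0.048. Between times it gave 3328 genes higher late and 5570 lower, against 4342 and 4561 as reported, and turned Psma1 and Psmb10 to -0.046 and -0.056. With 1 heart left out, late Psmb10 ran from -0.25 to 0.31 and Psmg3 from -0.22 to 0.47, and between times Psmb10 from -0.25 to 0.35 and Psmg3 from -0.50 to 0.24. Psmg3 between times turned to 0.032 with DESeq2, 0.028 with its size factors and 0.031 with no filter. The cause was not tested.

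Values near 0 early changed sign without a call. With cKO replicate 4 as a control, the log2 ratio difference became -0.041 for Psmb9 to Psmb6 and -0.035 for Psmb10 to Psmb7, Psmb10 -0.0098 and Psme2 0.058. With 1 early heart left out, the ratio of Psmb8 to Psmb5 ran from -0.039 to 0.060, Psmb9 to Psmb6 from -0.0059 to 0.091, Psmb10 to Psmb7 from -0.0046 to 0.085, Psmb9 from -0.075 to 0.10, Psmb10 from -0.049 to 0.040 and Psme2 from -0.10 to 0.036. Psmb10 was -0.00017 with no filter and -0.0034 in 1 fit of all libraries.

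Replicate numbers did not pair the hearts. Same-numbered hearts deviated from their group means with correlations of -0.09 to -0.04 early and -0.41 to -0.06 late, and no heart correlated best with its own number. With the number as a replicate block, 39 genes were called late, without Psma4, Psmb6 and Psme4 (adjusted p = 0.0546, 0.0507 and 0.0842), and early Psmb9 and Psmb10 became 0.00056 and -2.5e-05.

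Over all genes, 83 were called early, against 176 with DESeq2 (124 higher and 52 lower, where edgeR gave 70 and 13), 388 with no filter, 181 without cKO replicate 4, 162 with it as a control, and 45 to 54 without early cKO replicate 2 or early control replicate 2, 3 or 4. Depth limits Psmb9, Psme2b and Psma8, which rest on 48, 8 and 96 counts or fewer in late cKO hearts.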

Other observations

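Summed over the immune subunits, the level was 101, 100.4 and 176 CPM in late cKO hearts, against 267, 236 and 204 CPM in late controls. Summed over the core it was 1768, 1731 and 2533 CPM in late cKO hearts, against 1308, 1157 and 1027 CPM in late controls. The assembly chaperones summed to 137, 140 and 206 CPM in late cKO hearts, against 96.5, 90.1 and 79.9 CPM in late controls. In these 3 sums cKO replicate 3 was the highest of its group. The activators and regulators outside the immune set (Psme2b, Psme3, Psme4 and Psmf1) summed to 381, 392 and 328 CPM in late cKO hearts, against 394, 356 and 386 CPM in late controls, so the groups overlapped. This sum joins opposite changes. Psme3 and Psmf1 were higher in all cKO hearts, while Psme2b and Psme4, the largest part of the sum, were lower.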
